A study of Mus musculus with 48 samples.

Results

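The Trem2 receptor and 4 of its partners, Tyrobp, Apoe, Cd33 and Grb2, were followed in microglia of mouse pups reared under early-life stress. These 5 genes were taken by name from the 478 genes in each of the authors' 3 deposited comparison tables, and all 5 were present in every table. No difference between 2 rearing groups passed the test for any of the 5 after adjustment over all genes. Tested over all 3 groups, Trem2 itself lay nearest to no difference of the 5, and Cd33 and Apoe furthest from it.

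Microglia, the resident macrophages of the brain, came from the hippocampus of BALB/cByJ pups (written Balbc/Byj in the labels) aged 17 days. The LB and UPS groups were early-life stress conditions, and CTL was the control group. As background, LB stands for limited bedding and nesting material and UPS for unpredictable postnatal stress. Each group had 16 animals, 8 of each sex, and the 48 libraries were run in 4 batches that each held 2 libraries of every group and sex. Per the labels' protocols, 60000 microglia of each pup, sorted by flow cytometry after a Percoll gradient, were lysed and the lysate was counted on the nCounter glial panel, which counts transcripts with fluorescent barcodes and no amplification. The labels give 4 to 5 litters for each group and sex, so some animals were littermates. All p-values here take the animals as independent, and they are too small wherever littermates were alike.

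As background, Trem2 is a receptor on the surface of microglia that binds lipids, lipoproteins and cell debris. It has no signalling tail of its own and pairs in the membrane with the adaptor Tyrobp, also called DAP12, which carries an immunoreceptor tyrosine-based activation motif (ITAM). Once phosphorylated, that motif recruits the kinase Syk and, further on, phosphoinositide 3-kinase. In mice, Trem2 is needed for normal removal of synapses by microglia in the developing hippocampus. Apoe, the main lipoprotein component of the brain, is a Trem2 ligand. Cd33 is a sialic acid-binding lectin that in human microglia restrains uptake and opposes TREM2. Grb2 is an adaptor that binds phosphorylated tyrosines and links receptors to the Ras pathway.

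The values were log2 ratios between 2 groups with their p-values. The tables do not state which group is the numerator, so each sign stands as the authors wrote it and says nothing of which group had more transcript. The pairs were deposited as CTL and LB, CTL and UPS, and LB and UPS. If the group named second there is the numerator, a positive sign means more transcript in LB than CTL, in UPS than CTL and in UPS than LB. If it is the denominator, all signs are turned. A transcript ratio is per unit of the counted RNA, so a change per cell and a change in the kinds of cell in the sort cannot be told apart. Levels per library were not analysed here, so which animals were high or low, and the order of the genes by level, are not given. A gene passed where its Benjamini-Hochberg adjusted p, recomputed over the 478 genes of its table, was below 0.05. In the pair LB and CTL 0% of genes passed, in UPS and CTL 4.81% and in UPS and LB 6.28%, which is 0, 23 and 30 genes. Without adjustment, 56 genes (11.7%), 78 genes (16.3%) and 90 genes (18.8%) were below 0.05 in that order. The 2 pairs against CTL share the 16 control libraries, and the 2 pairs with UPS share its 16 libraries. The 2 pairs with LB share its 16 libraries, on opposite sides of the ratio.

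The receptor came first. In the authors' deposited tables the log2 ratio of Trem2 was -0.013 for LB and CTL (p = 0.716), -0.00074 for UPS and CTL (p = 0.984) and 0.013 for UPS and LB (p = 0.731). None of the 3 ratios was more than 0.129 of the standard deviation between animals of a group. Between UPS and CTL, 471 of the 478 genes had a smaller p than Trem2. The 95% interval, with a standard error of 0.036 recovered from the deposited ratios and p-values, ran from -0.086 to 0.060 for LB and CTL, from -0.073 to 0.072 for UPS and CTL and from -0.060 to 0.085 for UPS and LB. The largest differences inside these intervals were 6.14%, 5.22% and 6.09%. The series title reports reduced microglial Trem2 levels without saying whether protein or transcript was meant, and the study's protein data were not used here.

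Trem2 was among the more evenly measured genes of the tables. The spread between animals of a group, after removal of batch and with the sexes pooled, was recovered from the standard error. It was 0.10 on the log2 scale for Trem2, or 7.32%, and 374 of the 478 genes spread more. The median over all genes was 0.14, or 10.4%. With this spread Trem2 would have passed at a log2 ratio of 0.15 between LB and CTL, 0.12 between UPS and CTL and 0.11 between UPS and LB, which is 1.11-fold, 1.08-fold and 1.08-fold. The smallest ratios that did pass were of this order. They were 0.11 in size for UPS and CTL, held by the potassium channel gene Kcnk13, and 0.091 for UPS and LB, held by the creatine kinase gene Ckb, both from the authors' deposited tables and named after their values were seen.

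Tyrobp, the adaptor, varied least between animals of the 5 genes. Its spread was 0.083 on the log2 scale, or 5.94%, and 29 of the 478 genes had a smaller one. The authors' deposited tables gave log2 ratios of 0.025 for LB and CTL (p = 0.394), 0.036 for UPS and CTL (p = 0.222) and 0.011 for UPS and LB (p = 0.707). The lowest adjusted p of the 3, recomputed over all genes by the Benjamini-Hochberg method, was 0.550. The 95% intervals held differences of up to 6.05%, 6.87% and 5.01% in that order. A log2 ratio of 0.13, 0.095 or 0.092 in the same order would have been enough to pass.

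Apoe, the ligand, was the member in which UPS stood apart from the other groups. Its log2 ratio in the authors' deposited tables was -0.0042 for LB and CTL (linear ratio 0.997, p = 0.945), 0.12 for UPS and CTL (linear ratio 1.09, p = 0.0451) and 0.13 for UPS and LB (linear ratio 1.09, p = 0.0386). The 95% interval ran from 0.0031 to 0.25 for UPS and CTL and from 0.0071 to 0.25 for UPS and LB. Neither passed over all genes, with adjusted p-values of 0.299 and 0.218. In these 2 pairs 70 and 83 genes had smaller p-values. Apoe also varied most between animals of the 5, with a spread of 0.17 on the log2 scale, or 12.6%, and it would have needed a log2 ratio of 0.19 to pass in either pair. Between LB and CTL the interval from -0.13 to 0.12 held differences of up to 9.14%.

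Apoe is also made in quantity by astrocytes and by macrophages at the borders of the brain, so the markers of these cells are given beside it, although the cells were sorted as microglia by flow cytometry after a Percoll gradient. Of 12 astrocyte markers 2 were in the tables. Slc1a3, a glutamate transporter, passed for UPS and CTL at 0.21 (adjusted p = 0.0461) and for UPS and LB at 0.25 (adjusted p = 0.00996), and had -0.039 for LB and CTL, all log2 ratios of the authors' deposited tables. Glul, glutamine synthetase, had 0.11, 0.15 and -0.047 in the same order in the authors' deposited tables and did not pass. Of 9 border macrophage markers the scavenger receptor gene Stab1 alone was in the tables. Here and below, a measured gene is one in those tables. Whether the other listed genes were off the panel or left out for low counts is not known here. Stab1 passed at 0.20 in both pairs with UPS (adjusted p = 0.0197 against CTL and 0.0146 against LB) and had 0.0097 for LB and CTL in the authors' deposited tables. Cspg4, a proteoglycan of oligodendrocyte precursors and pericytes, had the signs of Apoe as well, with -0.18 for LB and CTL, 0.27 for UPS and CTL (p = 0.168) and 0.45 for UPS and LB (p = 0.0254, adjusted p = 0.175) in the authors' deposited tables, and did not pass. Genes of microglial identity had these signs too. Tgfbr1 had -0.071 for LB and CTL and passed at 0.11 for UPS and CTL and 0.18 for UPS and LB. Tmem119 had -0.19 and 0.27 for LB and CTL and for UPS and CTL, and passed at 0.46 for UPS and LB. Of the 17 measured microglial identity genes, 7 were positive and 10 negative for UPS and LB. The part of astrocytes, border macrophages or other cells in the Apoe ratios was not tested.

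Cd33, the lectin receptor that opposes TREM2 in human microglia, had LB and UPS at opposite ends and CTL between them. Its log2 ratio in the authors' deposited tables was 0.076 for LB and CTL (linear ratio 1.05, p = 0.0984), -0.034 for UPS and CTL (linear ratio 0.977, p = 0.460) and -0.11 for UPS and LB (linear ratio 0.927, p = 0.0192). The last of these had the smallest p of the 15 values of the 5 members, and 61 genes of that table had a smaller one. Its 95% interval ran from -0.20 to -0.019, and it did not pass over all genes (adjusted p = 0.148). The distance between LB and UPS was 0.861 of the standard deviation between animals of a group. That standard deviation was 0.13 on the log2 scale, or 9.26%, and a log2 ratio of 0.14 would have passed between UPS and LB. Whichever group is the numerator, the sign of Cd33 was opposite to that of Apoe in each of the 3 pairs. The exception was LB and CTL when the ratios were centred on the microglial identity genes, where Apoe turned to 0.0026. Only for UPS and LB did both genes have an unadjusted p below 0.05.

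Grb2, the downstream adaptor, lay near Trem2 in its ratios and in its spread. The authors' deposited tables gave log2 ratios of -0.023 for LB and CTL (p = 0.540), 0.014 for UPS and CTL (p = 0.711) and 0.037 for UPS and LB (p = 0.328). Its spread between animals was 0.10 on the log2 scale, or 7.52%, and 365 genes spread more. The 95% intervals held differences of up to 6.99%, 6.32% and 8.02% in the order of the pairs.

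**Figure D1:**
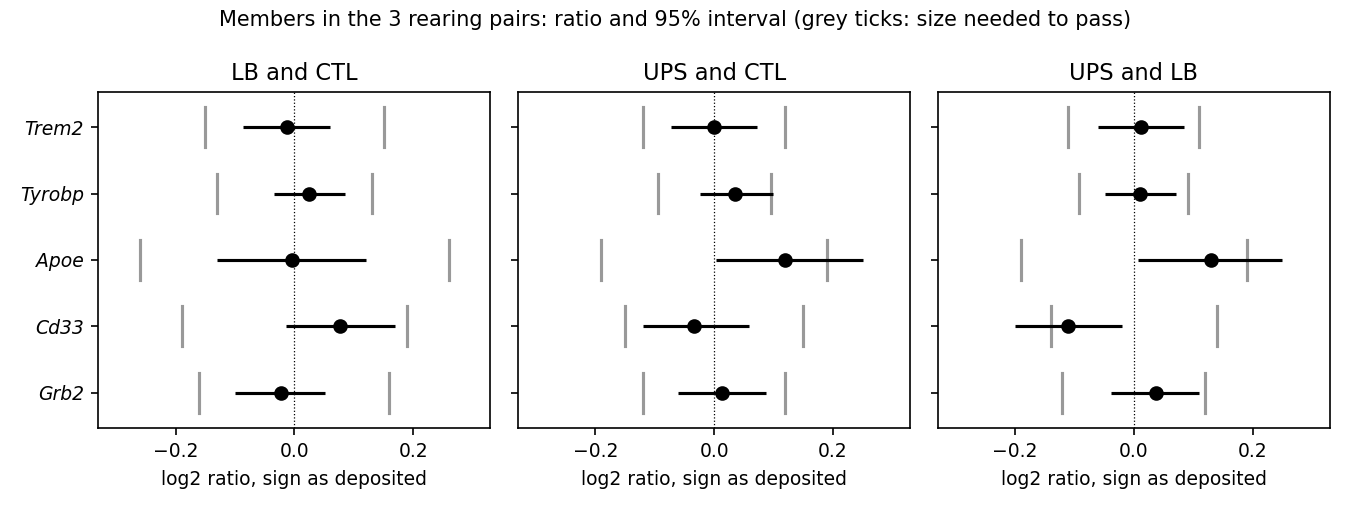
Log2 ratio (horizontal axis, sign as deposited) of each of the 5 genes in each pair of rearing groups, with its 95% interval as a bar and, as grey ticks, the ratio at which the gene would have passed. Every point lies inside its ticks. The bars of Apoe in both pairs with UPS and of Cd33 for UPS and LB leave out 0.

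At an unadjusted p below 0.05 the members gave 0 of 5 for LB and CTL, 1 of 5 (Apoe) for UPS and CTL and 2 of 5 (Apoe and Cd33) for UPS and LB, beside the 11.7%, 16.3% and 18.8% of all genes. The median size of the members' log2 ratios was 0.023, 0.034 and 0.037 in the same order, and over all 478 genes it was 0.0431, 0.0514 and 0.0542. The 5 genes did not share a direction. For LB and CTL 2 ratios were positive and 3 negative, for UPS and CTL 3 were positive and 2 negative, and for UPS and LB 4 were positive and 1, Cd33, negative. Centring on the microglial identity genes made it 3 positive and 2 negative for LB and CTL, and centring on all genes made it 4 positive and 1 negative for UPS and CTL.

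**Figure D2:**
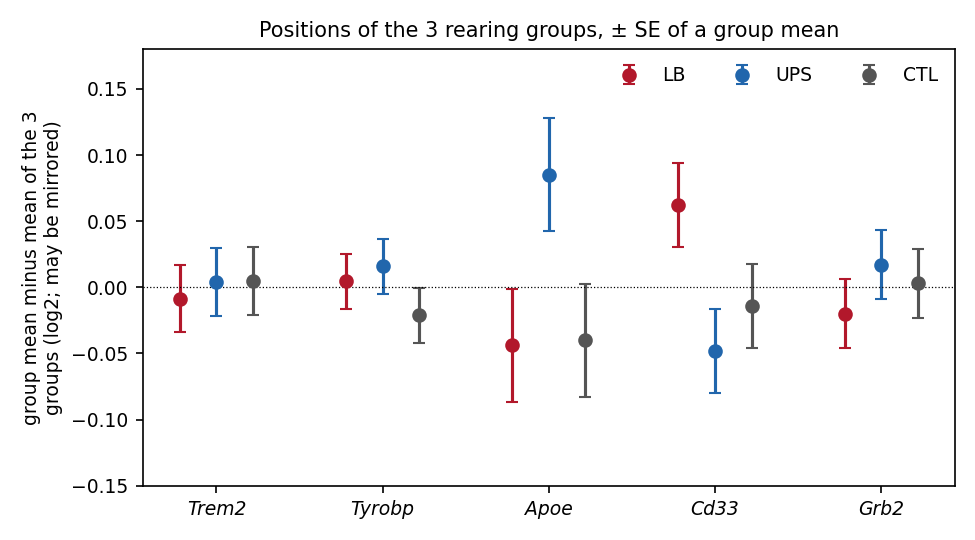
Mean of each rearing group relative to the mean of the 3 groups (vertical axis, log2; the whole picture may be mirrored, since the numerator is not stated), with the standard error of a group mean as bars. The 3 groups of Trem2 lie within 0.0132 of each other, UPS is set off for Apoe, and for Cd33 LB and UPS lie at the ends with CTL between.

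Read along this order, no difference between neighbouring groups passed for any of the 5 genes. Only Apoe, between CTL and UPS, had an unadjusted p below 0.05 (p = 0.0451). For Trem2 the order was LB, UPS, CTL or its reverse, with a whole span of 0.0132 on the log2 scale. For Tyrobp it was CTL, LB, UPS with a span of 0.0365, and for Grb2 LB, CTL, UPS with a span of 0.0367. The order of Apoe was LB, CTL, UPS with a span of 0.129, in which LB and CTL all but coincided (log2 ratio -0.0042). Cd33 had the order UPS, CTL, LB with a span of 0.110. Each order holds equally in reverse.

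The 3 ratios of a gene and their common standard error also give 1 test of rearing over all 3 groups, an F test with 2 and 42 degrees of freedom. By this test 33 of the 478 genes passed with Benjamini-Hochberg adjustment (6.90%) and 94 had an unadjusted p below 0.05 (19.7%). The series text counts 87 genes with a rearing effect in the authors' own analysis of variance, which also held sex. No member was among the 33 or the 94. Cd33 had F = 3.10 (p = 0.0553, adjusted p = 0.254) and Apoe F = 2.95 (p = 0.0633, adjusted p = 0.281), at ranks 104 and 107 of 478 by p. Tyrobp (F = 0.806, p = 0.454, adjusted p = 0.663) and Grb2 (F = 0.501, p = 0.610, adjusted p = 0.770) had ranks 327 and 378. Trem2 had F = 0.0850 (p = 0.919, adjusted p = 0.948) and rank 462. The test pools the sexes, and whether the members differed by sex was not analysed here.

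**Figure D3:**
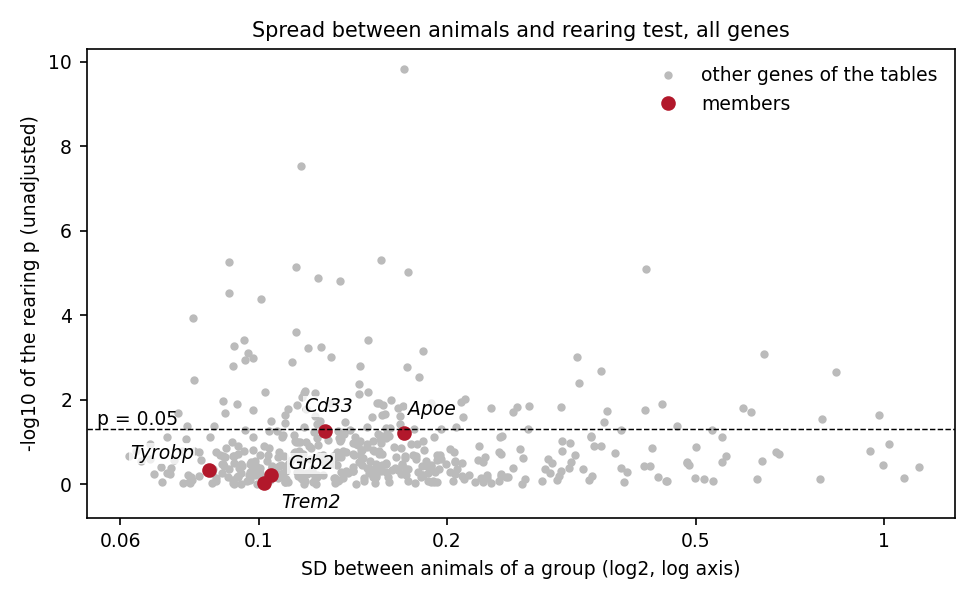
Each point is 1 of the 478 genes, with the standard deviation between animals of a group on the horizontal log axis (log2 units) and -log10 of the unadjusted rearing p on the vertical axis. Trem2, Tyrobp and Grb2 lie at the low-spread side and near the bottom, and Cd33 and Apoe lie just under the dashed line at p = 0.05.

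The other genes of the pathway were counted from lists of its steps. Among 12 ligands and lipid partners of Trem2, 4 were measured and 0 passed in any pair. All 4 had a negative log2 ratio for LB and CTL and all 4 a positive one for UPS and LB in the authors' deposited tables, apart from Apoe for LB and CTL when centred on the microglial identity genes (0.0026). Both pairs hold the LB libraries, on opposite sides of the ratio, so their signs are not independent. In these pairs the list medians were -0.051 and 0.12, beside 0.0035 and -0.010 for all genes. For UPS and CTL 3 of 4 were positive with a median of 0.017. Abca1, the transporter that loads lipid onto Apoe, had 0.10 for UPS and LB in the authors' deposited table (p = 0.0363, adjusted p = 0.215). Lpl, lipoprotein lipase, had the largest ratio of the list, -0.24 for LB and CTL (p = 0.0715), with a wide 95% interval from -0.51 to 0.022. App, the amyloid precursor protein, had -0.027, 0.0066 and 0.033 for LB and CTL, UPS and CTL, and UPS and LB.

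Of 45 genes of signalling below the ITAM, 11 were measured. Here 0 passed for LB and CTL, 2 with a positive and 0 with a negative sign for UPS and CTL, and the same 2 genes for UPS and LB. Positive ratios passed for 3.56% and 4.6% of all genes in these pairs. These were Pik3cb, a catalytic subunit of phosphoinositide 3-kinase (0.18 and 0.25 in the authors' deposited tables), and Pik3r1, a regulatory subunit (0.16 and 0.17). Both act below many receptors. For LB and CTL they had -0.069 and -0.011. By the test over 3 groups 3 of the 11 passed, Pik3cb (adjusted p = 0.000822) and Pik3r1 (adjusted p = 0.0156) among them. Mtor, a growth kinase further down the same route, had 0.11 for UPS and CTL and 0.12 for UPS and LB in the authors' deposited tables and did not pass (adjusted p = 0.238 and 0.153). The list medians were 0.0036, 0.014 and -0.015 in the order LB and CTL, UPS and CTL, UPS and LB, against 0.0035, -0.0024 and -0.010 for all genes.

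**Figure D4:**
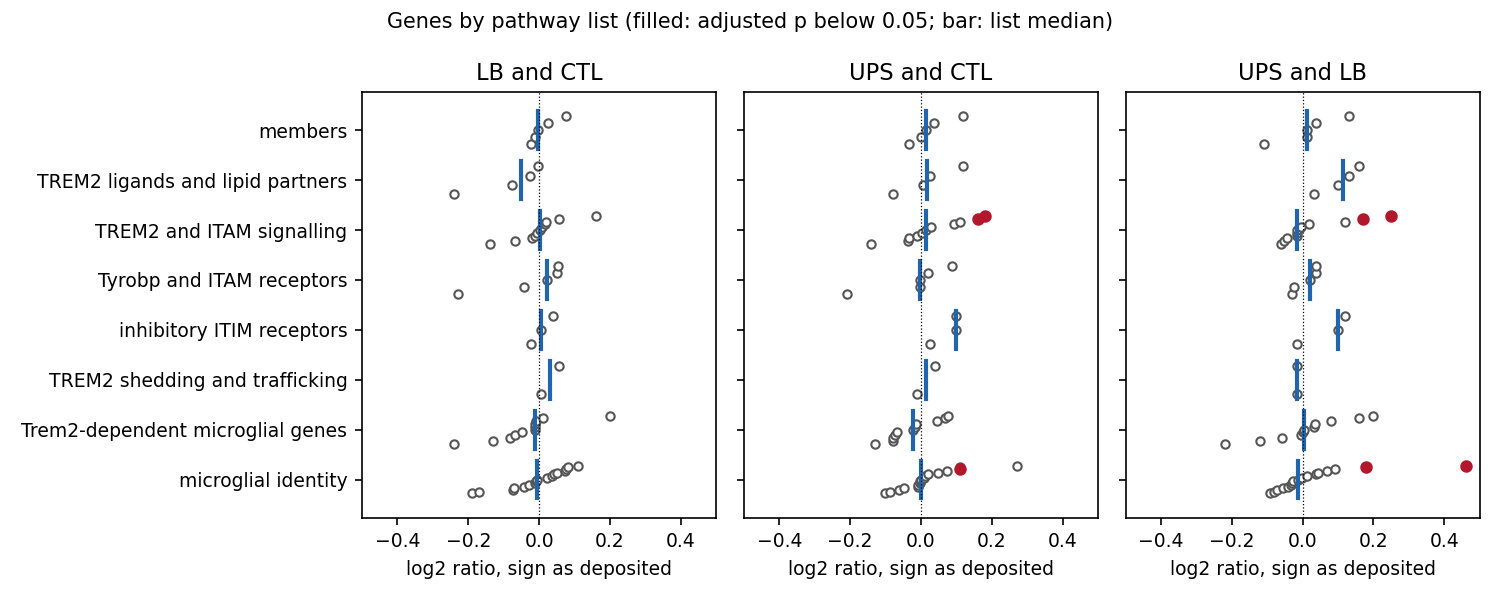
Log2 ratios (horizontal axis, sign as deposited) of the measured genes in 8 lists (the members, 6 lists of the pathway and microglial identity; lists of other cell types are not drawn) in the 3 pairs, with genes past the threshold filled and the list median as a bar. In the rows of the Trem2 pathway the filled points are Pik3r1 and Pik3cb in both pairs with UPS, and in the row of microglial identity they are Tgfbr1 in both pairs with UPS and Tmem119 for UPS and LB.

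Receptors that signal through Tyrobp or a like adaptor gave 0 passes among the 5 measured of 23 listed. Siglech, a lectin that pairs with Tyrobp in mice, had a log2 ratio of 0.050 for LB and CTL (p = 0.0398, adjusted p = 0.413), and Itgam, a subunit of complement receptor CR3, had 0.088 for UPS and CTL (p = 0.0434, adjusted p = 0.298) in the authors' deposited tables. Fcgr4, an activating antibody receptor, had -0.23 and -0.21 in the pairs of LB and UPS with CTL, with 95% intervals that held 0. Csf1r, the survival receptor of microglia, was at -0.042, -0.0024 and 0.039 in the order of the pairs in the authors' deposited tables. The list medians were 0.022, -0.0024 and 0.022.

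Of 18 listed inhibitory receptors, Cd33 not among them, 3 were measured and 0 passed. Sirpa, the receptor of the don't-eat-me signal CD47, came closest, with log2 ratios of -0.023 for LB and CTL, 0.10 for UPS and CTL (p = 0.0268) and 0.12 for UPS and LB (p = 0.00709, adjusted p = 0.0788) in the authors' deposited tables. The sign of Sirpa was thus opposite to that of Cd33 in each pair. Only for UPS and LB did both genes have an unadjusted p below 0.05, and Sirpa for LB and CTL had p = 0.595. Lair1, a collagen receptor, had 0.0054, 0.10 and 0.10, and Cd200r1, the receptor of CD200, had 0.040, 0.025 and -0.015 in the authors' deposited tables. Medians of the 3 were 0.0054, 0.10 and 0.10.

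Of 13 genes of Trem2 shedding and trafficking, 2 were measured and 0 passed. Bace1, a membrane protease, had log2 ratios of 0.056 for LB and CTL, 0.040 for UPS and CTL and -0.016 for UPS and LB, as the authors' deposited tables give them. The main sheddases of the Trem2 ectodomain were not among the genes analysed here, so their transcripts cannot be set beside the receptor.

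Genes whose induction in disease-associated microglia depends on Trem2 were measured for 11 of 19 listed, and 0 passed in any pair or by the test over 3 groups. At an unadjusted p below 0.05 there were 0 as well. Signs in the authors' deposited tables were positive for 2 and negative for 9 of them for LB and CTL, positive for 3 and negative for 8 for UPS and CTL, and positive for 6 and negative for 5 for UPS and LB. Centring on all genes or on the microglial identity genes made the last of these 8 positive and 3 negative. Medians were -0.013, -0.021 and 0.0036, beside 0.0035, -0.0024 and -0.010 for all genes. The smallest p belonged to Csf1, a microglial growth factor, with -0.22 for UPS and LB (p = 0.0508, adjusted p = 0.267) and 0.20 for LB and CTL (p = 0.0765) in the authors' deposited tables. Cd9, a tetraspanin, was at -0.083 for LB and CTL and -0.079 for UPS and CTL, and Ccl6, a chemokine, at -0.13 and 0.076.

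Markers of microglial identity served to check the sort, as far as ratios can. Of 19, Trem2 among them, 17 were measured, with list medians of -0.0069, -0.00074 and -0.012. Tgfbr1, a TGF-beta receptor needed for the mature microglial state, passed in both pairs with UPS (0.11 and 0.18 in the authors' deposited tables), and Tmem119, a microglial surface marker, passed for UPS and LB (0.46). Olfml3, a secreted microglial protein, had -0.17, -0.10 and 0.068, and Sparc, a matrix protein, 0.11, 0.075 and -0.034 in the order of the pairs in the authors' deposited tables. Of 61 markers of blood, lymphoid, neuronal, oligodendrocyte and vascular cells 9 were measured, and 0 passed in a pair. An unadjusted p below 0.05 in at least 1 pair was found for 4. The share of all genes with such a p in at least 1 pair was not computed, so this count has no background. In single pairs that share was 11.7% for LB and CTL, 16.3% for UPS and CTL and 18.8% for UPS and LB. By the test over 3 groups Cd34, a vascular and stem cell sialomucin, passed (adjusted p = 0.0333) with -0.42 for LB and CTL and -0.40 for UPS and CTL in the authors' deposited tables. Csf3r, a neutrophil receptor, had -0.17 for LB and CTL (p = 0.00204, adjusted p = 0.194), and Klrd1, of natural killer cells, -0.77 for UPS and CTL (p = 0.0388, adjusted p = 0.294). Gad1 of neurons, Pecam1 of vessels and the oligodendrocyte genes Cspg4, Mag and Cnp had adjusted p-values from 0.175 upward in every pair.

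Likeness of pattern was measured as the Euclidean distance between the 3 log2 ratios of a gene and those of a member, which rest on 3 groups and so on 2 free differences. Nearest to Trem2 were Pdpk1, a kinase that activates Akt (distance 0.00387), the amino acid transporter gene Slc7a8 (0.00861) and Atp6v1a, a subunit of the vacuolar proton pump (0.0116), among 38 genes closer than 1 standard error of Trem2. Rtn1, Cnp and Orc4 were nearest to Tyrobp, at 0.00706 to 0.0114. Nearest to Apoe were Ggta1 (0.00366), Cttnbp2nl (0.00568) and the cytokine gene Il18 (0.00886). For Cd33 they were Pdhb and Zpr1 (0.0151 each) and Grk3 (0.0263), and for Grb2 they were Lag3 (0.00497), App (0.00871) and Adora3 (0.00928). Between 12 genes, for Cd33, and the 38 of Trem2 lay within 1 standard error of a member, so the order among close neighbours is not resolved.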

How the data were processed

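Per the file headers, the authors' tables hold 4 deposited columns for each of 3 pairs of rearing groups, the log2 fold change, its linear value (a ratio), the p-value and that p after Benjamini-Hochberg adjustment. Per the series text, genes above 20 counts entered an analysis of variance, and nSolver's advanced analysis compared the groups in pairs, adjusting for batch. The sources used here give no normalization, housekeeping genes, software version or genome build, and the depth per library is unknown. All 5 members matched a RefSeq gene table of GRCm38.p6.

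No expression model was refitted. Deposited p-values were adjusted again over 478 genes, with the same calls. Standard errors came from each gene's deposited ratio and smallest p, with a t distribution of 42 degrees of freedom, for 1 model of 48 libraries with rearing and batch. Standard errors of a gene then differed by a median of 0.145% between its tables, against 0.168% for 48 libraries without batch, which lies close, and 0.444% and 0.366% for fits of 2 groups with and without batch. The UPS and LB ratio equalled the difference of the other 2 to within 0.003. The standard deviation between animals was the standard error times the root of 8, for 16 libraries a group. The ratio needed to pass used the adjusted threshold for 1 further gene. The F statistic was the sum of the 3 squared ratios over 3 squared standard errors. Standard errors and F were tested on simulated data. Python 3.11.15, pandas 2.3.3 and scipy 1.17.1 were used.

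Members and lists were chosen with earlier results of these data known. Up to 4 genes per list with the smallest p over 3 groups were named, as were the 3 genes nearest to each member. A few of these are not reported here. Alternatives were joint adjustment, Benjamini-Yekutieli, the deposited adjusted p, centring on all genes or on 17 microglial identity genes, a normal distribution, standard errors of 2-group fits and unadjusted p-values.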

Additional observations from a re-analysis of the deposited data

How the results depend on the processing

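None of the 15 member ratios and none of the 5 tests over 3 groups crossed the threshold under any alternative run, apart from unadjusted p-values for the ratios, which stand with each gene. Benjamini-Yekutieli can only raise the adjusted p, and the deposited adjusted p is the same adjustment. Neither could therefore have made a member pass, and they add nothing to this result. Only the centrings change a ratio, so no sign could turn under the other alternatives. Under the centrings 3 member values did not keep their sign. Trem2 for UPS and CTL turned to 0.0017 when centred on all genes and to 0 when centred on the microglial genes, of which it is the median, and Apoe for LB and CTL turned to 0.0026 when centred on the microglial genes. No centring moved a pair by more than 0.012 on the log2 scale. For Cd33 between UPS and LB the adjusted p ranged from 0.115 to 0.999, for Apoe from 0.258 to 1 for UPS and CTL and from 0.170 to 1 for UPS and LB, with the upper ends by Benjamini-Yekutieli. Counts of all genes moved more. With the 3 tables adjusted together 3 genes passed for LB and CTL, and 2 with a normal distribution. By Benjamini-Yekutieli 4 passed for UPS and CTL, 13 for UPS and LB and 12 over 3 groups, which is a stricter adjustment by construction. Unadjusted counts were 56, 78, 90 and 94. No paired analysis was possible because values per library were not used here, and leaving out single animals, batches, litters or a sex was not possible for the same reason. How far the recovered standard errors depend on litters was not tested.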
